A study of Mus musculus with 2 samples.

Results

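The genes described here are 54 genes of the DNA replication machinery and of nucleotide supply, taken from a list of names by role, with no threshold on their values, although the list was drawn up with earlier results of these data known. They include the proteins that license replication origins, the replicative helicase, the DNA polymerases, the sliding clamp with its loader, enzymes that make the building blocks of DNA, and proteins that rebuild chromatin behind the fork. Of the 54 genes, 53 carried at least 1 probe set (the group of short probes that together report a transcript) with a single gene symbol, among 18193 genes named in this way. Chaf1a, the remaining gene, is not analysed here.

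Transcripts were measured in livers of C57BL/6J mice aged 2 months, 3 days after a tail vein injection of 1000000000 plaque-forming units of adenovirus. The 3 mice of the Ad-PDK4 group received a vector that overexpresses PDK4 (pyruvate dehydrogenase kinase 4, which phosphorylates and inactivates pyruvate dehydrogenase), and the 4 mice of the Ad-control group received the empty vector, so that both groups carried adenovirus and neither was uninfected. Liver RNA was pooled within each group and 10 ug of each pool was labelled, which gave 1 array per group. The Pdk4 probe set had a signal of 177 in the pool labelled Ad-PDK4 and 234 in the pool labelled Ad-control (log2 difference -0.39). The sources used here do not say whether this probe set reads the vector's transcript, so it does not check the labels, and each direction below rests on them. With 1 array per group there is no measure of the spread between mice, no test was possible, and every difference below describes these 2 pools only.

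Before a cell divides, it copies its genome once. The origin recognition complex, with Cdc6 and Cdt1, loads the ring-shaped MCM helicase on DNA in G1, and Cdc45 and the GINS complex then turn this ring into the active helicase of S phase. Primase and DNA polymerase alpha start each strand, polymerases delta and epsilon extend it with the clamp PCNA, and ribonucleotide reductase supplies the deoxynucleotides. In adult liver most hepatocytes rest outside the cell cycle and these genes are expressed at low levels, until partial hepatectomy or injury brings the cells back into division. Many replication genes are known targets of E2F transcription factors.

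The promoters of several of these genes carry letters of the E2F type, and 6 promoters are shown: 5 of genes that were at least 2-fold higher, with and without such letters, and that of Tk1 as a gene with nearly equal signals. Sequences are from RefSeq (GRCm38.p6), and each runs 5′ to 3′ on the strand of its gene from 250 bases before the annotated start to 50 bases from it. In the first 4 sequences capitals mark the searched E2F-type letters, which were TTGGCGC as the first form, TTCGCGC as the second form, TTCCCGC as the third form and TTGCCGC as the fourth form, on either strand, and matches that overlap run together. Mcm6 (chr1:128359656-128359955, minus strand), Mcm5 (chr8:75109259-75109558, plus strand) and Mcm3 (chr1:20820263-20820562, minus strand) encode helicase subunits, and Prim1 (chr10:128014965-128015264, plus strand) encodes the catalytic subunit of primase.
Mcm6: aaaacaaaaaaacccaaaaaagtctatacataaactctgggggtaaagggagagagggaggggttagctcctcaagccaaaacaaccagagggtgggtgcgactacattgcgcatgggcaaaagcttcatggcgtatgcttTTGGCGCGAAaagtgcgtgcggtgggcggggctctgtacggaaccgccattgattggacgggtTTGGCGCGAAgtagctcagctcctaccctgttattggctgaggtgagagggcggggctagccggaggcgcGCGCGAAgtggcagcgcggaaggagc
Mcm5: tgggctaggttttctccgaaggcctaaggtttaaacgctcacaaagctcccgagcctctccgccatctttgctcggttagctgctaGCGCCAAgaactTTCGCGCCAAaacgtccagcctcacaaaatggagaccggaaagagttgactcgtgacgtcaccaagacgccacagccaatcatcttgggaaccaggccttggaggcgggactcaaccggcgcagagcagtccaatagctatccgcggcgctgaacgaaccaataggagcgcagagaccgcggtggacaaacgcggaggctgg
Mcm3: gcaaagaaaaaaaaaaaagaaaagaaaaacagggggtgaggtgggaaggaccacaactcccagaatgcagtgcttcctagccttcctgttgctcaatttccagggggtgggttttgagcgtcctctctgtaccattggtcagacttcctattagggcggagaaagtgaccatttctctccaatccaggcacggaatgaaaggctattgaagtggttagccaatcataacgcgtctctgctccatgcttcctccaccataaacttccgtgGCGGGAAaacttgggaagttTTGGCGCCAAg
Prim1: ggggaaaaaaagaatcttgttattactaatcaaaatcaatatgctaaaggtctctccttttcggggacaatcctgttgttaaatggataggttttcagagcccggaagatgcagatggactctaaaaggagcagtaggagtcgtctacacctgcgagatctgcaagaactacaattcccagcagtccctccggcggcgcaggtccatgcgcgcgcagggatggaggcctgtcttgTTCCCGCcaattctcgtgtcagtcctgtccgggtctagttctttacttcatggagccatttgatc
Top2a (chr11:99024140-99024439, minus strand) encodes DNA topoisomerase II alpha, which separates the copied strands, and Tk1 (chr11:117825965-117826264, minus strand) encodes thymidine kinase. Neither window held the E2F-type letters. For these genes capitals mark the CHR element TTTGAA, known from genes of late cell cycle phases, and the CCAAT box. Top2a held 2 CHR and 6 CCAAT matches, and Tk1 held 0 of either. Tk1 does not stand for the similar genes, since 19 of 30 genes within 2-fold held an E2F-type match and 18 held a CCAAT box.
Top2a: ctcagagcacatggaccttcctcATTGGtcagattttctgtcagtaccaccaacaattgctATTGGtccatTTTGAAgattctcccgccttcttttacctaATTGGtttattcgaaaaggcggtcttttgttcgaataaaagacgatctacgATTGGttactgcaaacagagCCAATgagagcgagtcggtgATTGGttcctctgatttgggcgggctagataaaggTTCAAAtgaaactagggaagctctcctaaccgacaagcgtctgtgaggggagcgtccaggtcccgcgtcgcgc
Tk1: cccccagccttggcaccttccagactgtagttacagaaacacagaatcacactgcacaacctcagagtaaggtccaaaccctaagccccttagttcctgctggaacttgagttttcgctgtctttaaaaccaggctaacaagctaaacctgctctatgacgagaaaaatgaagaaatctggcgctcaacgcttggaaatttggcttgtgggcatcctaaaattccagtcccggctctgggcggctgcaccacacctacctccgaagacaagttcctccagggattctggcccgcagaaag

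At least 1 E2F-type match was present in 35 of 58 promoter windows of the replication genes (60.3%), against 3145 of all 32851 windows of the same length (9.57%). There were 2 or more matches in 12 windows of the replication genes (20.7%) and in 1.18% of all windows. The replication windows were richer in G and C, with a median of 61.3% against 52.7% over all windows. Among the 10835 windows between 53.2% and 66.2% GC, the interquartile range of the replication windows, 13.5% held a match. The CCAAT box was in 32 of the 58 windows (55.2%), against 37.4% of all windows, and CHR in 7 (12.1%), against 17.9%. In the windows of matched GC these shares were 37.8% for the CCAAT box and 10.5% for CHR, so the side on which CHR fell turned with the windows it was set against. Windows were found for 46 of the 54 genes. The others were Gins1, Gins2, Gins4, Gmnn, Mcm4, Pole, Prim2 and Rfc2. A match of letters is a description of the sequence and does not show that a factor binds there.

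**Figure D1:**
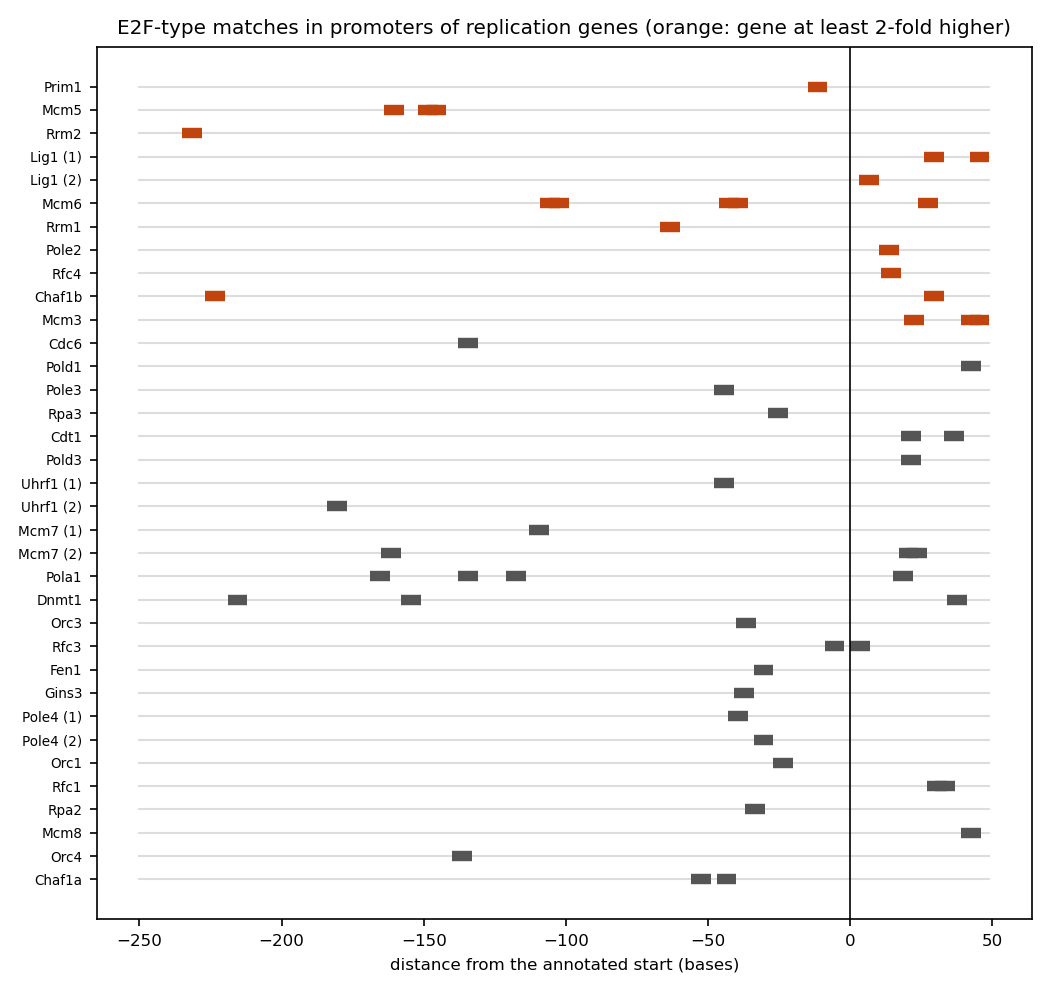
Position of each E2F-type match (bars) in the 35 promoter windows that held one, against the distance in bases from the annotated start; genes run from the highest to the lowest offset difference in signal, Chaf1a without a value comes last, orange marks genes at least 2-fold higher in the Ad-PDK4 pool, and a number in brackets separates windows of the same gene. Matches lie on both sides of the start, and Mcm6 has the most, 5, partly overlapping.

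Hepatocyte markers were high in both pools, while markers of another tissue, the exocrine pancreas, differed between them. All 10 hepatocyte markers with a probe set were within 2-fold, with signals of at least 13672 in the Ad-PDK4 pool (13671.5) and 15650 in the Ad-control pool (15650.2). Their summed signal was 720223 in the Ad-PDK4 pool and 783996 in the Ad-control pool, with a median log2 difference of -0.14. Of 14 exocrine pancreas markers with a probe set, 13 were at least 2-fold higher in the Ad-PDK4 pool, where 3.58% of all genes were. The summed signal of the 14 was 92316 in the Ad-PDK4 pool and 11644 in the Ad-control pool. Ptf1a, the acinar transcription factor, was under the floor on both arrays. These markers were thus higher in the same pool as most of the replication genes described below, and their part in those differences was not tested. Markers of T and NK cells (12 genes, summed signal 1302 in the Ad-PDK4 pool and 1211 in the Ad-control pool), of B and plasma cells (7 genes, 1083 in the Ad-PDK4 pool and 1130 in the Ad-control pool) and of erythroid cells (5 genes, 1851 in the Ad-PDK4 pool and 2348 in the Ad-control pool) held 0 genes past 2-fold in either direction. Of the 12 T and NK cell markers, 6 were under the floor on both arrays (Cd3e, Cd3g, Cd4, Cd8b1, Nkg7 and Gzmb) and 4 were above it on both, Cd8a, Thy1, Klrd1 and Prf1. Cd3d reached it in the Ad-PDK4 pool only (108 in the Ad-PDK4 pool, 27.3 in the Ad-control pool) and Gzma in the Ad-control pool only (94.9 in the Ad-PDK4 pool, 152 in the Ad-control pool). Among erythroid markers, those under the floor on both arrays were Hba-a1, Epb42 and Slc4a1. Of 12 macrophage and neutrophil markers, 11 reached the floor on at least 1 array. Of these 11, 2 were 2-fold lower (Vsig4, 2.28-fold, and Clec4f, 2.18-fold), where 0.891% of all genes were. At 1.5-fold, S100a8 (1.58-fold) and S100a9 (1.53-fold) were higher, where 11.0% of all genes were. The summed signal of the 12 was 7233.2 in the Ad-PDK4 pool and 7919.5 in the Ad-control pool, and 5 of the 12 were higher in the Ad-PDK4 pool. The median log2 difference of the 9 measured on both arrays was 0.17, which leaves out markers under the floor on either array. The direction of this list thus depended on the measure. The 10 endothelial and stellate cell markers (summed signal 12786 in the Ad-PDK4 pool and 13879 in the Ad-control pool) and 5 biliary markers (339 in the Ad-PDK4 pool and 528 in the Ad-control pool) held 0 genes past 2-fold. Few genes of the whole array passed 2-fold, so 0 in lists this short says little. In pooled tissue RNA, more cells of a type and more RNA per cell cannot be told apart.

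Most of the replication genes had higher signals in the Ad-PDK4 pool. Both deposited arrays had a trimmed mean of 500, and a floor was set at the median signal of the probe sets other than controls, 99.9 on the Ad-PDK4 array and 93.4 on the Ad-control array. Of the 53 genes, 46 reached the floor on both arrays, 4 on the Ad-PDK4 array only (Gins2, Gins3, Lig1 and Uhrf1), 1 on the Ad-control array only (Mcm8) and 2 on neither (Cdc6 and Tyms). Among the 51 genes above the floor on at least 1 array, 16 (31.4%) were at least 2-fold higher in the Ad-PDK4 pool, where 3.58% of all 12121 named genes that reached it were. None (0) was 2-fold lower, against 0.891% of those genes. Of the 16, 14 were measured on both arrays, and Gins2 and Lig1 had only a bound, because they were under the floor in the Ad-control pool. A gene that reached the floor in the Ad-PDK4 pool only could not come out lower. At 1.5-fold, 24 genes were higher (11.0% of all genes were) and 0 lower (5.58%), and 27 lay within 1.5-fold. At 4-fold, Mcm2, Gins2, Prim1 and Top2a, 4 genes, were higher (0.767%). Each gene is represented by its brightest probe set unless another is named. For Mcm2, Mcm3, Mcm5, Gins2, Pole, Rpa1, Rrm2 and Top2a, all 2-fold higher, that probe set is of a kind that can match several transcripts.

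Differences, taken on the log2 scale as Ad-PDK4 minus Ad-control, had a median of 0.56 over the 46 genes measured on both arrays, and over all 10389 such genes it was 0.015. In 41 of the 46 the difference was above 0, as in 51.6% of all genes. The interquartile range was 0.20 to 1.13 for the 46 and -0.22 to 0.27 for all genes. Their median signal was 660 in the Ad-PDK4 pool and 367 in the Ad-control pool, while that of all genes measured on both arrays was 687 in the Ad-PDK4 pool and 662 in the Ad-control pool. To keep every gene in the count, the differences were also taken as log2(signal + 50), with no floor. On this scale, which shrinks differences of dim genes, 44 of the 53 genes were above 0 and the median was 0.53, against 0.0073 over all 18193 named genes. Of the 53, 14 (26.4%) were at least 2-fold higher and 0 were 2-fold lower, where 4.18% and 2.24% of all named genes were.

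**Figure D2:**
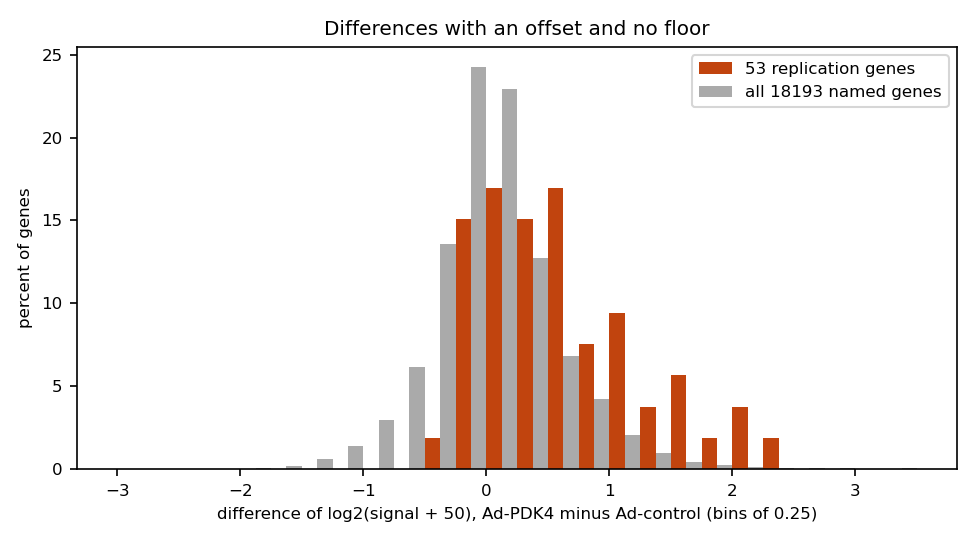
Percent of genes (vertical axis) in bins of 0.25 of the difference of log2(signal + 50), Ad-PDK4 minus Ad-control, for the 53 replication genes (orange) and all 18193 named genes (grey). The replication genes reach from -0.38 to 2.31 with a median of 0.53, and the grey bars centre near 0.

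Probe sets for the same gene give the only error scale in these data. Their log2 differences had a pooled SD of 0.35 over the 4326 genes that had several measured on both arrays, and of 0.38 over the 27 replication genes of this kind. Error from the mice, the pool, the labelling or the array, which all probes of a transcript have in common, is not part of this SD. In 20 of the 27 genes all measured probe sets were above 0, as in 23.7% of the 4326 genes, in 1 (Orc2) all were below 0, and in 6 they lay on both sides. In 8 genes every measured probe set was at least 2-fold higher: Mcm2, Mcm5, Mcm6, Prim1, Rfc4, Rpa1, Rrm1 and Rrm2. On the whole array this held for 26 genes (0.601%). Of the 96 probe sets of replication genes above the floor on at least 1 array, 36 were 2-fold higher, where 3.31% of all such probe sets were, and 0 were 2-fold lower (1.06%).

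**Figure D3:**
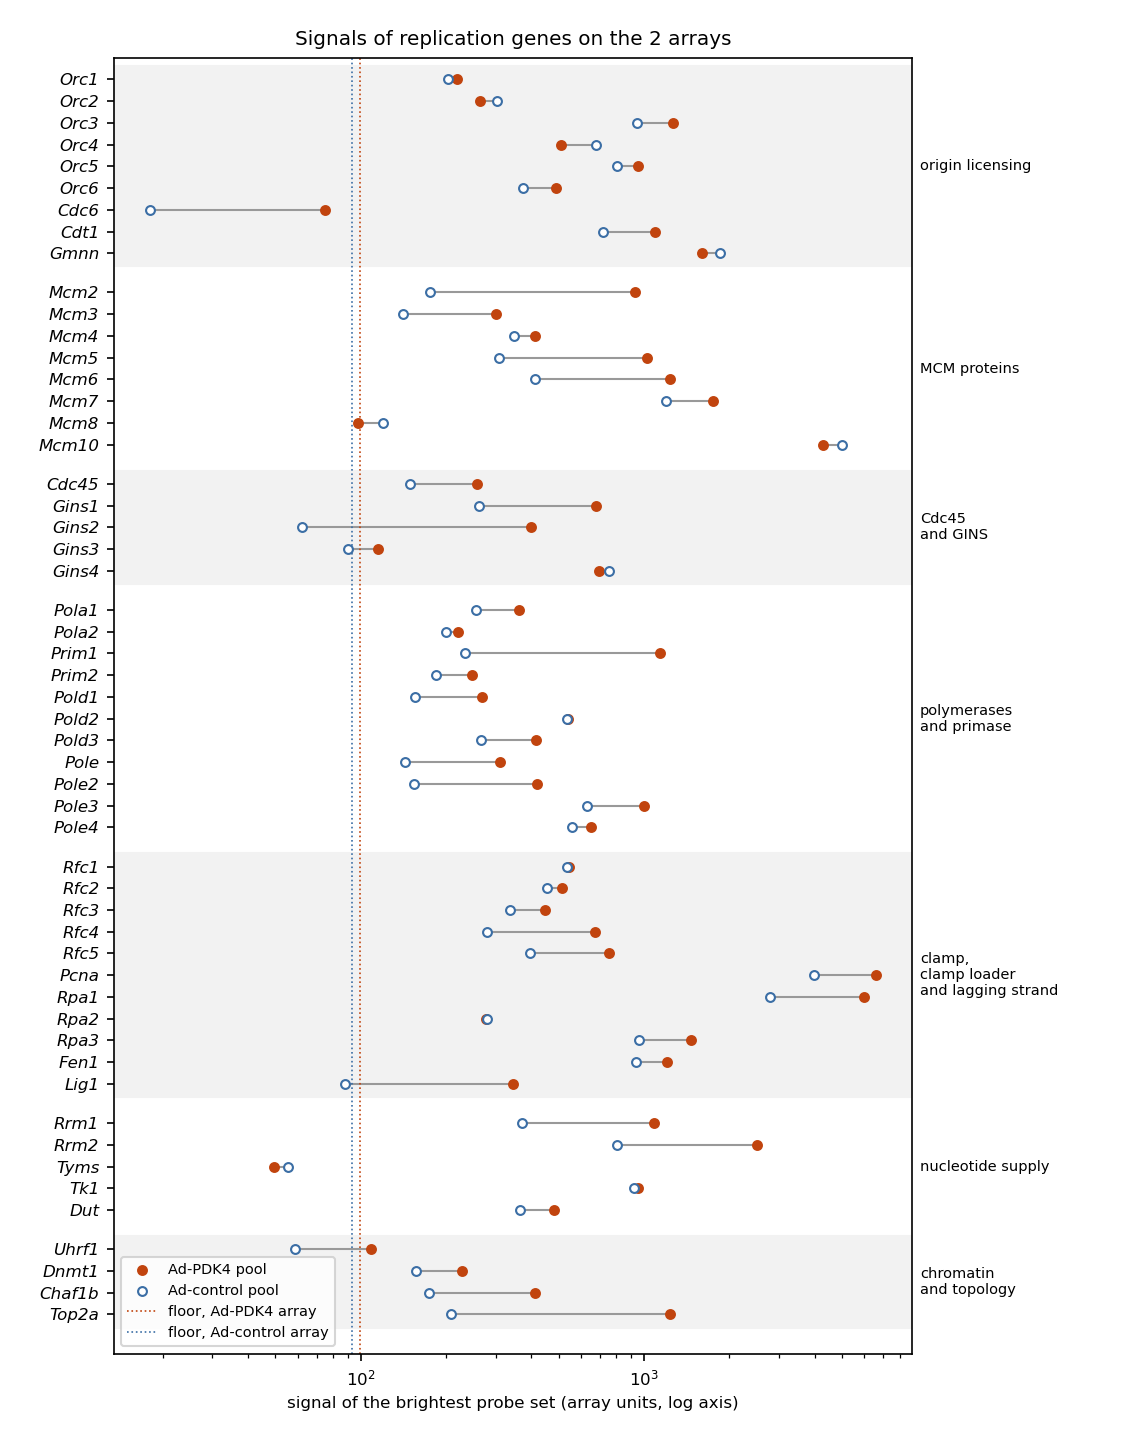
Signal of the brightest probe set of each of the 53 replication genes on a log axis, with the Ad-PDK4 pool as filled orange points and the Ad-control pool as open blue points; each point is 1 array, and dotted lines mark the floor of each array (99.9 and 93.4). The widest gaps are those of Gins2, Top2a, Mcm2 and Prim1 and, below both floors, Cdc6.

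The genes that recognise and license origins differed least by their offset median. Over all 9 genes it was 0.22, the lowest of the role groups. Of the 9, 8 reached the floor on at least 1 array, all but Cdc6. Among these 8, 0 were 2-fold higher (3.58% of all genes were), 1 was at least 1.5-fold higher (11.0%) and 7 lay within 1.5-fold. These counts lie near the shares of all genes. The 6 subunits of the origin recognition complex, the platform on which the helicase is loaded, had 12 probe sets above the floor on both arrays, between -0.67 and 0.44 on the log2 scale, 6 of them above 0. Orc1, the largest subunit, had signals of 219 in the Ad-PDK4 pool and 203 in the Ad-control pool. Orc6 had 489 in the Ad-PDK4 pool and 376 in the Ad-control pool, a log2 difference of 0.39, close to the probe set SD. Orc4 was lower, with 511 in the Ad-PDK4 pool and 678 in the Ad-control pool (-0.39), while its other measured probe sets gave -0.28 and 0.060. Orc2 was lower on its 3 probe sets, with a log2 difference of -0.18 on the brightest and -0.67 at most. Centring on the poly-A controls in place of the median turned Orc2 (0.36) and Orc4 (0.15) to above 0, and centring on the hybridization controls turned Orc2 (0.073) but not Orc4 (-0.14). Orc3 and Orc5 differed by 0.44 and 0.26, but the probe sets of Orc3 reached down to -0.31.

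The loading factors differed among themselves. Cdt1, which brings the MCM ring to the origin, had 1094 in the Ad-PDK4 pool and 716 in the Ad-control pool, 1.54-fold higher, and 2.24-fold on its other measured probe set (477.5 in the Ad-PDK4 pool, 215.0 in the Ad-control pool). Geminin, encoded by Gmnn, is the inhibitor of Cdt1 and had 1604 in the Ad-PDK4 pool and 1857 in the Ad-control pool, a log2 difference of -0.20 that became 0.059 with centring on the hybridization controls and 0.35 on the poly-A controls. Cdc6, an ATPase that loads the ring together with the origin recognition complex, was under the floor on both arrays. Its signal was 75.1 in the Ad-PDK4 pool and 18.1 in the Ad-control pool, so no fold is given.

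The helicase genes held some of the largest differences. MCM2 to MCM7 form the ring that unwinds DNA at the fork. Of these 6 genes, 4 were at least 2-fold higher by their brightest probe set (3.58% of all genes were). Of their 16 probe sets above the floor on at least 1 array, 11 were 2-fold higher (3.31% of all such probe sets were). Mcm2 had a signal of 929 in the Ad-PDK4 pool and 176 in the Ad-control pool, 5.35-fold higher, and its other probe set was 2.66-fold higher. Mcm5 had 1029 in the Ad-PDK4 pool and 308 in the Ad-control pool (3.37-fold), and 4.22-fold on the other measured probe set. For Mcm6 the signals were 1235 in the Ad-PDK4 pool and 414 in the Ad-control pool (3.01-fold), with 3.30-fold on the other. These 3 subunits were thus higher on each of their measured probe sets.

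Mcm3 was 2.16-fold higher on its brightest probe set, with 301 in the Ad-PDK4 pool and 141 in the Ad-control pool. Its other 3 probe sets above the floor were so only in the Ad-PDK4 pool, and were at least 2.43-fold, 2.50-fold and 3.10-fold higher. The probe sets of Mcm4 disagreed. The brightest, of a kind that can match several transcripts, gave 411.5 in the Ad-PDK4 pool and 348 in the Ad-control pool (1.19-fold), and the other gave 575 in the Ad-PDK4 pool and 230.5 in the Ad-control pool (2.52-fold). Mcm7 had 1755 in the Ad-PDK4 pool and 1194 in the Ad-control pool, 1.48-fold higher, and its 4 probe sets ran from 0.19 to 0.81 on the log2 scale.

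The other 2 MCM genes are not subunits of this ring. Mcm8 encodes a helicase of recombination and was under the floor in the Ad-PDK4 pool (97.6), against 120 in the Ad-control pool (119.8), at least 1.19-fold lower, a bound that was 0 on the log2 scale with either control centring. Mcm10 encodes a factor that helps to activate the helicase. Its signal was 4280 in the Ad-PDK4 pool (4279.9) and 4995 in the Ad-control pool, on a probe set of a kind that can match several transcripts. The log2 difference was -0.21 (0.048 with centring on the hybridization controls and 0.33 on the poly-A controls). Its other measured probe set was far dimmer, with 162 in the Ad-PDK4 pool and 154 in the Ad-control pool (0.092), so the level of Mcm10 is not settled.

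The partners of the ring were split as well. Of Cdc45 and the 4 GINS genes, 2 were 2-fold higher (3.58% of all genes were) and 3 at least 1.5-fold higher (11.0%). Gins2 had 399 in the Ad-PDK4 pool and 62.2, under the floor, in the Ad-control pool, which makes it at least 4.31-fold higher. The bound on its other probe set was 2.99-fold. Gins1 had 675 in the Ad-PDK4 pool and 262 in the Ad-control pool (2.61-fold). Cdc45, the third component of the active helicase, had 257 in the Ad-PDK4 pool and 149.5 in the Ad-control pool, 1.74-fold higher, with 2.05-fold on its other probe set. Gins4 had 693 in the Ad-PDK4 pool and 750 in the Ad-control pool (749.8), a log2 difference of -0.099 that became 0.16 with centring on the hybridization controls and 0.44 on the poly-A controls. Gins3 lay at the floor, with 115 in the Ad-PDK4 pool and 90 in the Ad-control pool, and its 2 probe sets had bounds on opposite sides of 0 (0.32 and -0.45).

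**Figure D4:**
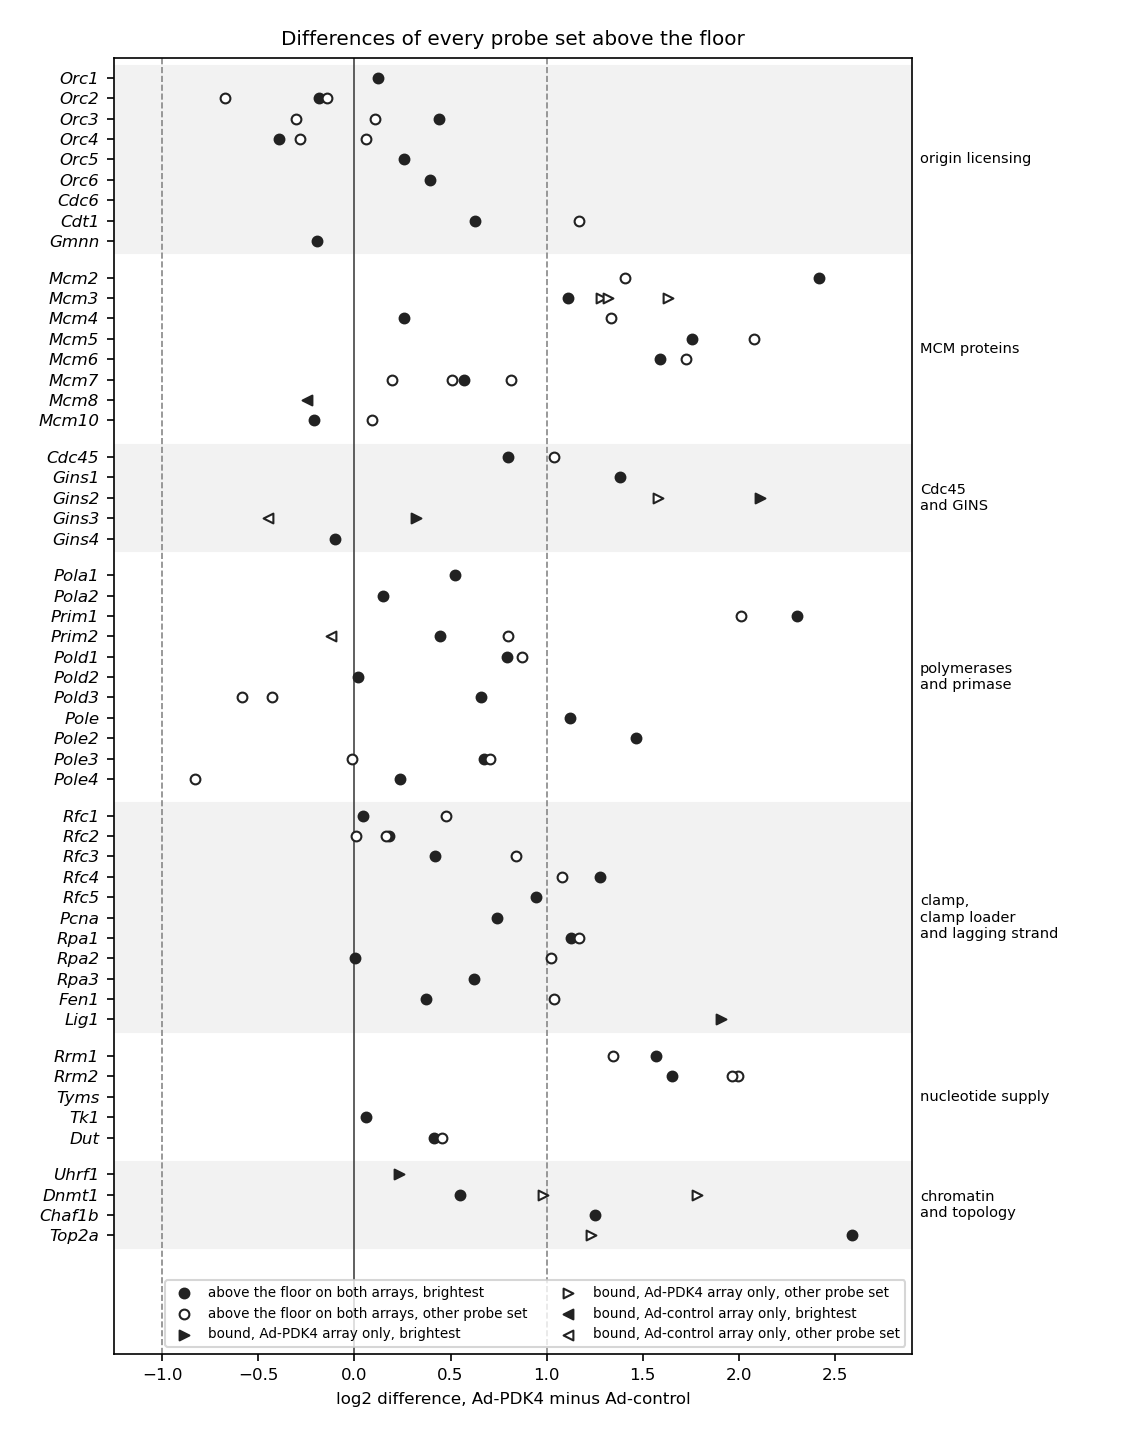
Log2 difference, Ad-PDK4 minus Ad-control (horizontal axis), of every probe set above the floor on at least 1 array, for the 51 replication genes that had one; filled symbols are the brightest probe set of a gene, circles were measured on both arrays, triangles are bounds that point away from the floor, and dashed lines mark 2-fold. Cdc6 and Tyms have no symbol, and no symbol lies beyond 2-fold lower.

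Among the polymerase genes, Prim1, Pole and Pole2 were 2-fold higher. Of the 11 genes these were 3 (3.58% of all genes were 2-fold higher), while 6 were at least 1.5-fold higher (11.0%). The other 5 lay within 1.5-fold, and the offset median was 0.55. Prim1, the subunit that makes the RNA primer, had 1141 in the Ad-PDK4 pool and 233 in the Ad-control pool, 4.94-fold higher, and 4.02-fold on its other probe set. Its partner Prim2, the large primase subunit, had 248 in the Ad-PDK4 pool and 184 in the Ad-control pool (1.36-fold), with 1.74-fold on another probe set and a bound of 1.09-fold lower on the third. Pola1, the catalytic subunit of polymerase alpha, had 362 in the Ad-PDK4 pool and 255 in the Ad-control pool (1.44-fold). Its accessory subunit Pola2 differed by 1.11-fold.

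Polymerase epsilon, which copies the leading strand, has its catalytic subunit in Pole. This gene had 310 in the Ad-PDK4 pool (310.2) and 144 in the Ad-control pool, 2.18-fold higher. Pole2, the second subunit, had 421 in the Ad-PDK4 pool and 154 in the Ad-control pool (2.76-fold). Pole3 and Pole4 are its small histone-fold subunits, and neither had probe sets that all pointed one way. Pole3 was 1.596-fold higher (998 in the Ad-PDK4 pool, 632 in the Ad-control pool), although its dimmest probe set gave -0.014, and Pole4 gave 0.24 on one probe set and -0.83 on the other. For polymerase delta, which copies the lagging strand, Pold1 (catalytic) had 268 in the Ad-PDK4 pool and 156 in the Ad-control pool (1.74-fold, 1.83-fold on the other probe set). Pold2 was nearly the same on both arrays, with 538.5 in the Ad-PDK4 pool and 537 in the Ad-control pool. The direction of Pold3 is not settled, since its brightest probe set gave 0.66 and the other 2 gave -0.43 and -0.58.

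Behind the helicase, replication protein A coats single-stranded DNA, the clamp loader RFC places the PCNA ring, and Fen1 and Lig1 trim and join the Okazaki fragments. Of these 11 genes 3 were 2-fold higher, 6 at least 1.5-fold higher and 5 within 1.5-fold. The shares of higher genes on the whole array were 3.58% for 2-fold and 11.0% for 1.5-fold. Rpa1, the large subunit of replication protein A, was bright and had 5998 in the Ad-PDK4 pool and 2776.5 in the Ad-control pool, 2.18-fold higher, with 2.25-fold on its other probe set. Rpa3 was 1.54-fold higher. Rpa2 is not settled, because its probe sets gave 1.003-fold and 2.03-fold. Pcna, the clamp itself, had 6576 in the Ad-PDK4 pool and 3969 in the Ad-control pool, 1.67-fold higher on its only probe set.

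The 5 subunits of the clamp loader were not alike. Rfc4 had 669 in the Ad-PDK4 pool and 279 in the Ad-control pool (2.42-fold, and 2.12-fold on the other probe set), and Rfc5 had 752 in the Ad-PDK4 pool and 395 in the Ad-control pool (1.92-fold). Rfc3 was 1.34-fold and 1.79-fold higher on its probe sets. The large subunit Rfc1 differed by 1.03-fold, with 544 in the Ad-PDK4 pool and 533 in the Ad-control pool, and Rfc2 by 1.13-fold. Lig1, DNA ligase I, had 346 in the Ad-PDK4 pool and 88.4, under the floor, in the Ad-control pool, at least 3.75-fold higher. Fen1, the flap endonuclease, gave 1.297-fold on its brightest probe set, which can match several transcripts, and 2.05-fold on the other (339 in the Ad-PDK4 pool, 167 in the Ad-control pool).

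In nucleotide supply the split followed single enzymes. Both subunits of ribonucleotide reductase, which turns ribonucleotides into deoxyribonucleotides, were higher on all their measured probe sets. Rrm2, the subunit that is made in S phase, had 2511 in the Ad-PDK4 pool and 806 in the Ad-control pool (3.14-fold), with 3.98-fold and 3.91-fold on the others. Rrm1 had 1087 in the Ad-PDK4 pool and 370 in the Ad-control pool (370.1), 2.97-fold higher, and 2.54-fold on the other. Tk1, thymidine kinase of the salvage pathway, had 954 in the Ad-PDK4 pool and 923 in the Ad-control pool, 1.04-fold, on its only probe set. Dut, the dUTPase that keeps uracil out of DNA, was 1.33-fold and 1.37-fold higher. The 4 probe sets of Tyms, thymidylate synthase, were all under the floor on both arrays, so its direction is unknown here, and 1 further probe set that carries this symbol together with another was not used.

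The last group acts on new chromatin. Top2a had 1236 in the Ad-PDK4 pool and 208 in the Ad-control pool, 6.005-fold higher, the largest difference among the 46 genes measured on both arrays, and at least 2.34-fold higher on another probe set. Chaf1b, a subunit of the assembly factor that deposits histones at the fork, had 411 in the Ad-PDK4 pool and 175 in the Ad-control pool (2.38-fold). Dnmt1, the maintenance DNA methyltransferase, had 228 in the Ad-PDK4 pool and 157 in the Ad-control pool (1.47-fold) on its brightest probe set, and at least 3.44-fold and 1.97-fold on the others. Uhrf1, which brings Dnmt1 to hemimethylated DNA, had 109 in the Ad-PDK4 pool and 58.7 in the Ad-control pool, a bound of only 1.18-fold, since the higher signal lay close to the floor.

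The promoter letters shown above were found in both higher and similar genes. An E2F-type match was present in at least 1 window of 10 of 13 genes that were 2-fold higher (76.9%) and of 19 of 30 genes within 2-fold (63.3%), a difference that was not tested. Of the genes that were 2-fold higher, Mcm2, Rpa1 and Top2a had no E2F-type match. The CCAAT box was in 9 of the 13 higher genes (69.2%) and 18 of the 30 within 2-fold (60.0%). CHR was in 2 (15.4%) and 5 (16.7%) of them, and neither difference was tested.

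Other genes of the pathway, from lists of factors that fire origins or accompany the fork, were also 2-fold higher more often than all genes, on small counts. Of 33 such genes above the floor on at least 1 array, 4 were 2-fold higher, 0 were 2-fold lower and 29 lay within 2-fold, where 3.58% of all genes were higher and 0.891% lower. The offset median over all 38 with a probe set was 0.28. Wdhd1, which ties the helicase to polymerase alpha, had 448 in the Ad-PDK4 pool and 164 in the Ad-control pool (2.76-fold), and Ctc1, of the CST complex at telomeres, was 2.66-fold higher. Dbf4, the activator of the Cdc7 kinase that fires origins, was 2.53-fold higher, and the histone chaperone gene Asf1b at least 3.64-fold; these last were picked after their values were seen. Top3a (-0.67) and Chtf8 (-0.59) were the lowest measured on both arrays. The enzymes outside the main list that make deoxynucleotides and pyrimidines had an offset median of -0.033 over 24 genes, with 2 genes 2-fold higher and 1 lower of 23, against the same shares of 3.58% and 0.891%. Mthfd2, of mitochondrial folate metabolism, was 2.93-fold and Dtymk, thymidylate kinase, 2.18-fold higher, while Uck2, a uridine-cytidine kinase, was 2.09-fold lower and Upp2, a uridine phosphorylase, 1.58-fold lower.

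By their offset medians, purine synthesis and the repair polymerases lay closer to the array median than the origin and fork factors (0.28), though not closer than the deoxynucleotide and pyrimidine enzymes (-0.033). The same shares, 3.58% of all genes higher and 0.891% lower, apply to both lists. Of 14 purine genes none (0) was past 2-fold in either direction, and the offset median was 0.088. Prps2 (0.77) and Adss (0.63) were the highest, and Adssl1 (-0.83) and Paics (-0.29) the lowest on the log2 scale. Of 11 translesion and repair polymerase genes that reached the floor, 1 was 2-fold higher, namely Polk (2.54-fold). Mad2l2, a subunit of polymerase zeta, was next with 0.85, Polg2 (-0.39) and Rev3l (-0.29) were the lowest measured on both arrays, and the offset median over 13 genes was -0.044. Polm, picked after its values were seen, was under the floor in the Ad-PDK4 pool (76.7) and had 174 in the Ad-control pool, at least 1.72-fold lower.

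**Figure D5:**
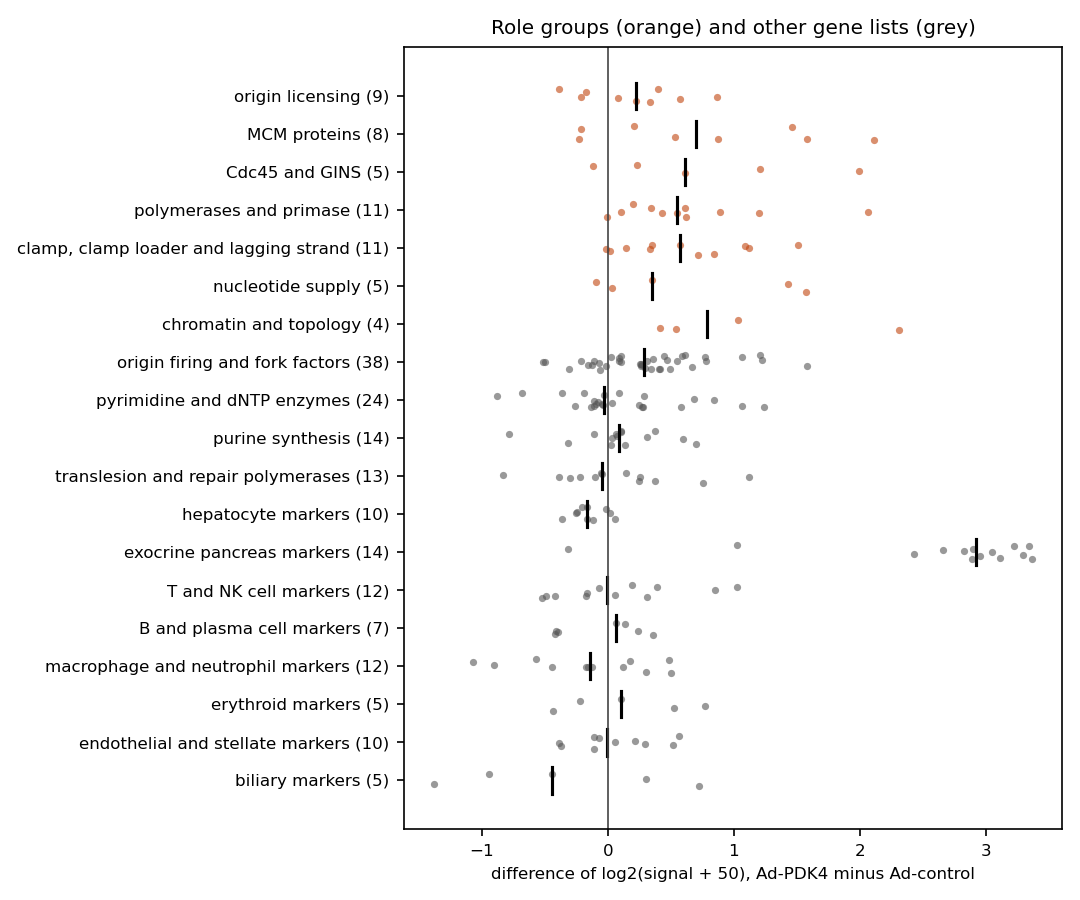
Difference of log2(signal + 50), Ad-PDK4 minus Ad-control, of each gene (points, spread vertically for legibility) in the role groups of the replication genes (orange) and in the other lists (grey), with the number of genes in brackets and the median as a black bar. The group medians of the replication genes lie between 0.22 and 0.78, and the exocrine pancreas markers at 2.92.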

How the data were processed

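Liver RNA of 3 mice (Ad-PDK4) and 4 mice (Ad-control) was pooled by the authors, labelled with biotin by the Affymetrix procedure and hybridized to 1 array per group, per the labels' protocols. The deposited table holds linear signal intensity values for 45101 probe sets; the sources used here do not name the summary software, background correction or genome build. The deposited intensities have a mean of 500 on each array without the highest and lowest 2%, so a difference compares a transcript with the rest of its pool. Gene names came from the platform annotation: 34945 probe sets carried 1 symbol, 932 carried several and were not named (2 of them shared by a listed gene), 9160 carried none, and 64 were controls. All 53 listed genes on the array matched RefSeq by Entrez identifier.

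Signals were put on the log2 scale and centred on the median difference (-0.015) over probe sets at or above the floor, the 50th percentile of each array. Each gene was represented by the probe set of highest mean log2 signal. A signal under the floor gave a bound against the floor. The offset of 50 was centred on its own median over all probe sets. No p-value was computed with 1 array per group, and the number of arrays limits the precision. Calculations used Python 3.11.15, pandas 2.3.3 and statsmodels 0.14.6 and were tested on simulated data. The simulated differences lay in bright genes and were larger than most of those here, so dim genes and bounds were not covered. The listed genes and the other lists were chosen with earlier results of these data known. All listed genes were reported; in the other lists, names were limited to the 2 highest and 2 lowest with a value on each array and to markers under the floor, and not all of these are printed. Dbf4, Asf1b, Polm, the T and NK cell markers Cd3d and Gzma and the biliary marker Krt19 were named after their values were seen. Alternatives changed the floor (30th or 70th percentile), the probe sets, the normalization, the centring and the offset (16 or 100).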

Additional observations from a re-analysis of the deposited data

How the results depend on the processing

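No paired analysis was possible because each group is 1 pooled array, and no sample could be left out. The number of replication genes at least 2-fold higher was 16 and stayed between 16 and 19 under 6 of 8 alternatives. Raising the floor to the 70th percentile left 10 of 41, where Mcm3, Gins2, Pole, Pole2, Lig1 and Chaf1b had bounds under 2-fold and 1.82% of all genes were higher. It was 27 with centring on the poly-A controls, where 15.8% of all genes were higher. That centring moved the median over all genes to 0.56 and the median over the replication genes to 1.10 from 0.56, and it turned Orc2, Orc4, Gmnn, Mcm10 and Gins4 to above 0 (0.15 to 0.44). Centring on the hybridization controls (median over all genes 0.27) turned these except Orc4 too (0.048 to 0.16), and the bound of Mcm8 was 0 under both. None (0) was 2-fold lower under any of the 8 alternatives. Without the probe sets that can match several transcripts the offset median of the MCM genes was 1.19 against 0.70, Mcm4 and Cdt1 were 2-fold higher, and Pole had no probe set left. On the log2 scale Mcm2 then fell to 1.41 from 2.42 and the bound of Gins2 to 1.58 from 2.11, while Mcm5 rose to 2.08 from 1.75. The other medians moved by less than the probe set SD.

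The dim signals of Gins2, Lig1, Gins3, Uhrf1, Mcm8, Cdc6 and Tyms limit what can be said of them. For Cdc6 a bound of 2-fold or more appeared only with the floor at the 30th percentile.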
